A study of Mus musculus with 8 samples.

Results

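The genes described here are 5 receptor tyrosine kinases, Kit, Flt3, Csf1r, Pdgfra and Pdgfrb, and 2 ligands, Kitl and Flt3l. They were chosen by name, 1 row each, out of 38172 rows in the deposited gene table, and all 7 passed the filter on low values. They were measured in haematopoietic stem cells (HSCs), which sustain all blood lineages, from bone marrow of wild-type C57BL/6 mice aged 4 months (young) or 24 months (old). The cells were sorted fresh by the gate SP-KSL-CD150+: side population cells that pump out a dye, carry Kit and Sca-1, lack lineage antigens and carry CD150. Each age had 2 biological replicates, numbered 13 and 14, and each replicate had 2 technical libraries of polyadenylated RNA, 8 libraries in all. The labels give no treatment and do not say whether a replicate was 1 animal or a pool. Nor do they give the sex of the animals.

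These 5 receptors form 1 family, with an extracellular part built of immunoglobulin-like domains and an intracellular kinase split by an insert. A dimeric ligand brings receptor chains together, the kinases phosphorylate each other, and adaptors then recruit the PI3 kinase, RAS-MAP kinase and STAT pathways. Kit, bound by stem cell factor (Kitl), is needed to maintain HSCs, while Flt3 is known as a receptor of multipotent and lymphoid progenitors. Csf1r drives monocytes and macrophages, and the PDGF receptors are best known from mesenchymal and perivascular cells. Kit protein is part of the gate, so every library came from cells chosen for carrying it.

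Values are the deposited reads per gene after the authors' scaling and rounding, called scaled reads here, and the authors' FPKM, which also corrects for gene length. Library totals lay between 40.7 and 44.2 M scaled reads, and the reads before scaling, estimated from the step between values, numbered 22.3 to 66.5 M per library. Technical libraries of a replicate were averaged, so n = 2 per age, and an SD is over those 2 replicates. The comparison of ages was fitted with limma over 18318 genes, and a gene was called where its p, adjusted over all of them, was under 0.05. Of those genes 467 (2.55%) were called, 368 (2.01%) as higher and 99 (0.54%) as lower in old HSCs. Before adjustment, 2573 of the 18318 had a limma p under 0.05. In counts and shares of genes below, rose and fell mean called as higher or as lower. Of the genes that mark the gate, Slamf1 (CD150), Ly6a (Sca-1), Abcg2 (the dye pump) and Kit were all present in every replicate. Many genes of maturing myeloid cells were highest in young 14, and old 14 lay above old 13 in the monocyte and granulocyte marker sums given below. The values of the replicates are given beside each result they touch.

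Kit was among the most abundant messages in the data, and of the 5 receptors Flt3 was the 1 that passed the test for a change with age. Per length, the mean level of Kit ranked 113th of 38172 rows, at 216 ± 3.9 FPKM in young and 236 ± 17 in old HSCs (SD, n = 2 per age). Flt3 fell from 12.1 ± 0.018 to 4.01 ± 0.58 FPKM. Kit and the other 5 genes did not pass the test. The bases before the RefSeq start sites of Kit and Flt3, the pair on which the comparison of receptors turns, are printed 5′ to 3′ from the GRCm38.p6 table, a later build than the mm9 of the deposited values. Kit has 2 listed start sites 4 bases apart, and the window of the first is shown. Kit lies at chr5:75574737-75574986 on the plus strand and Flt3 at chr5:147400490-147400739 on the minus strand, each window 250 bases long. Capitals mark every match, on either strand, of GATA, of GGAA (the core of ETS factor sites) and of the E-box CANNTG.
Kit: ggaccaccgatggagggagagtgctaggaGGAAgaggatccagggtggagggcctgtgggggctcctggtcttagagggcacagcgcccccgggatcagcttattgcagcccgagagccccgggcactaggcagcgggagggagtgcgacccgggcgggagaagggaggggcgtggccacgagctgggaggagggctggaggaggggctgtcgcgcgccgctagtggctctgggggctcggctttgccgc
Flt3: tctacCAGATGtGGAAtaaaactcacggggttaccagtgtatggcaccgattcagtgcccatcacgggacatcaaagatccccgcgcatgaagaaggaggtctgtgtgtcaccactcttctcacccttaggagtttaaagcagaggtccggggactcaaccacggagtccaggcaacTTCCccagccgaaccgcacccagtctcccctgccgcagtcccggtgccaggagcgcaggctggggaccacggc
Neither window held GATA, a match found in 53.6% of the 32851 promoter windows of this length. GGAA occurred 1 time before Kit and 2 times before Flt3, and was present in 93.4% of all windows. The E-box occurred 1 time before Flt3, where it lies next to a GGAA match, and 0 times before Kit, and was present in 66.2% of windows. The Kit window had 17 CpG and 70.8% G and C, the Flt3 window 13 CpG and 59.2%. These are matches of letters only.

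**Figure D1:**
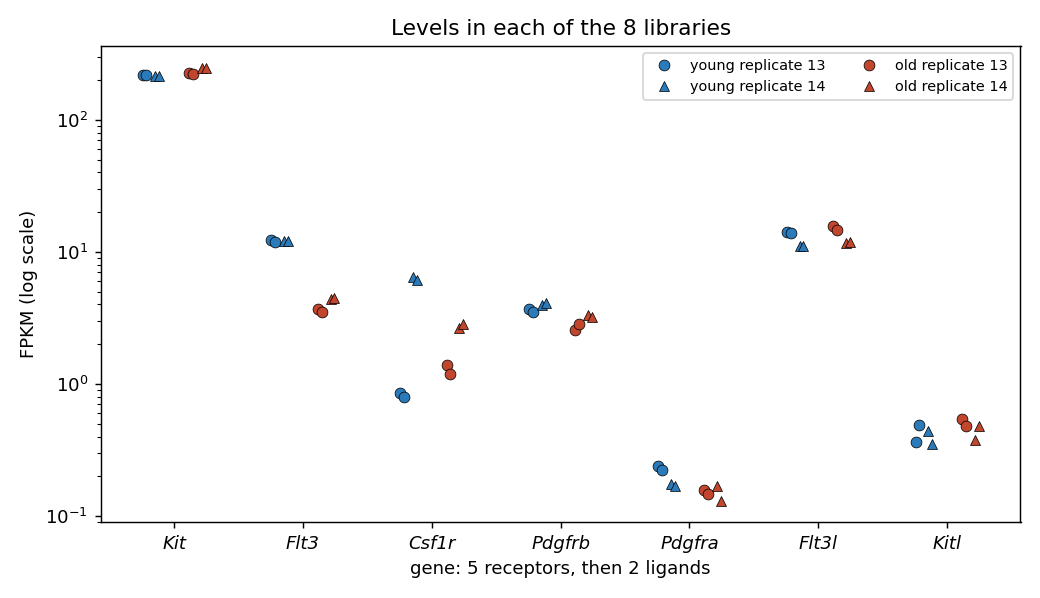
Level of each of the 7 genes in FPKM (log axis) in each of the 8 libraries, blue for young and red for old, circles for replicate 13 and triangles for replicate 14. Flt3 lay near 12 FPKM in all 4 young libraries and between 3.52 and 4.48 in the old ones, Kit lay between 213 and 248.5, and Csf1r separated replicate 14 from replicate 13 at both ages.

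Flt3 fell with age, and it was lower in every old library than in any young one. The 4 young libraries had 2220 and 2167 scaled reads in replicate 13 and 2205 and 2191 in replicate 14. In old HSCs the values were 668 and 639 in replicate 13 and 793 and 814 in replicate 14. All old values thus lay under all young ones, and the 2 young replicates differed by 4.5. The fitted log2 fold change was -1.60 (SE 0.16, 95% interval -1.98 to -1.22, limma adjusted p = 0.00558), that is, a level 3.03-fold lower in old HSCs. Flt3 was the 1 of 7 genes called, and 0.54% of all tested genes were called in the same direction. In bulk RNA, fewer Flt3-bearing cells in the gate and less Flt3 message per cell cannot be told apart. Flt3 lies on chromosome 5 from 148142317 to 148212065 on the minus strand in mm9, and no other row of the table overlaps it.

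The call on Flt3 needed both old replicates, while its size changed little. It was called without young 13 (adjusted p = 0.0281) and without young 14 (adjusted p = 0.0329). Without old replicate 13 the log2 fold change was -1.45 (adjusted p = 0.124), and without old replicate 14 it was -1.75 (adjusted p = 0.158). With either old replicate left out, limma called 0 genes of the 18318 (3669 and 1933 at an unadjusted p under 0.05). Without a filter on low values Flt3 had an adjusted p = 0.0777, again with 0 genes called (2943 unadjusted). The authors' deposited table gives Flt3 a log2 fold change of -1.62 with an FDR of 8.88e-33. Which libraries entered that comparison as replicates is not stated there.

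Other markers of the progenitors that carry Flt3 were measured in the same libraries, and their part in the result was not tested. The multipotent and lymphoid progenitor list had 12 tested genes, of which 2 fell, Satb1 and Cd34, against 0.54% of all tested genes, and none rose. Its median log2 change was -0.91, with 9 genes under 0, against a median of 0.04 and 43.5% under 0 over all tested genes. In young 14, 10 of the 12 were higher than in young 13, by a median of 1.24 on the log2 scale over the list, and Flt3 was higher there by 4.5 scaled reads. The list summed to 24423 and 27375.5 scaled reads among young and to 15651 and 18113.5 among old replicates, and Cd34 was its most abundant gene. None of its genes was at 0. Cd34, a sialomucin that short-term stem cells and progenitors carry, fell from 13919 ± 787 to 7305 ± 1322 (adjusted p = 0.0456). For Satb1, which shapes chromatin in lymphoid development, the drop was from 601.2 ± 121 to 226.5 ± 27.6 (adjusted p = 0.0256). Cd48, carried by multipotent progenitors, had young values of 195 and 779.5 and old values of 125.5 and 280.5 and was not called. Il7r, Ccr9 and Notch1 of the list had fitted log2 changes above 0, at 0.49, 0.79 and 0.05, and were not called either. Dendritic cells also carry Flt3: of 8 tested genes of their list, 1 fell, Flt3 itself (0.54% of all tested genes fell), and none rose. The list summed to 13879.5, 14167, 15268.5 and 24176.5 scaled reads (young 13, young 14, old 13, old 14), Cd74 being its most abundant gene. Its genes Xcr1 and Siglech had at most 5.5 and 21.5, and Cd209a and Itgax at most 43 and 68.5. Zbtb46 had more, with 182, 164.5, 154.5 and 139.5 in the same order, and was not called.

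The genes whose log2 profile over the 8 libraries lay closest to that of Flt3, out of 10667 with a mean of at least 100, were Mmp2, P2ry14, Kcnk12 and Igf1. The root mean square difference between the centred profiles was 0.096 for Mmp2, a matrix metalloproteinase, and 0.12 for Igf1, the insulin-like growth factor. Mmp2 fell from 410.5 and 423 to 134 and 145.5, a log2 fold change of -1.57 (adjusted p = 0.0128). P2ry14, a receptor for UDP-sugars, fell from 507.5 and 570 to 161 and 177.5 (adjusted p = 0.00983). This is a measure of likeness in 4 replicates of 2 ages only, and it was not tested. Because these genes were picked for their likeness to Flt3, their fall with age follows from that choice.

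Flt3l, the ligand of Flt3, did not pass the test. Young 13 had 747.5 scaled reads, young 14 588, old 13 808 and old 14 626.5. The ages overlapped, and at both ages replicate 13 lay above replicate 14. Its log2 fold change was 0.10, with an interval of -0.39 to 0.59 (adjusted p = 0.893), so a rise of up to 1.5-fold or a drop to 0.766 of the young level lay within the error. The message of the ligand was present in the HSCs at 12.5 ± 2.1 FPKM in young and 13.5 ± 2.4 in old cells. Per length, Flt3l overlapped Flt3 in young HSCs and lay above it in old ones: the ratio of Flt3l to Flt3 took values of 1.16 and 0.912 among young replicates, against 4.21 and 2.66 among old. An exact permutation test over the 4 replicates, two-sided, gave p = 0.333, the smallest p that 2 against 2 allows. In mm9 Flt3l lies on chromosome 7 from 52386559 to 52391802, minus strand.

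Kit, the receptor the gate selects for, did not pass the test. Its scaled reads were 56502 and 56262 in young 13, 54966 and 54951 in young 14, 57885 and 57763 in old 13, and 63777 and 64122 in old 14. The old replicates lay above the young ones, but by little: young replicates differed from each other by 1424 scaled reads and old ones by 6126. Its fitted change, on the log2 scale, was 0.13 (SE 0.20, interval -0.35 to 0.61, adjusted p = 0.856), which leaves room for 1.53-fold more and for 0.782 of the young level. Technical libraries differed by at most 1.01-fold. The ratio of Kit to Flt3, per length, took young values of 18.1 and 17.6 and old values of 62.3 and 56 (exact permutation p = 0.333, the smallest possible). Among the genes of the gate, Slamf1 rose from 1666 ± 97.9 to 3129 ± 65.1 (adjusted p = 0.0226), while Ly6a and Abcg2, like Kit, were not called. The 8 stem cell genes of another list all had fitted changes above 0, where 43.5% of all tested genes lay below 0. Of the 8, 1 rose, Procr (2.01% of all tested genes rose), and none fell. Their sums were 76275.5, 71953, 86771 and 94216 scaled reads (young 13, young 14, old 13, old 14). Kit lies on chromosome 5 from 75971012 to 76052746 on the plus strand in mm9, and its row joins 2 RefSeq transcripts.

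The 4 genes with profiles nearest to that of Kit were Cds2, Icmt, Cd79b and Rab2b, with root mean square differences of 0.012 to 0.018. Cds2, an enzyme of phosphoinositide synthesis, had young values of 7314 and 7216 scaled reads and old values of 7604 and 8420. None of these 4 genes was called, and genes picked for likeness to Kit change with age about as little as Kit by that choice.

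Kitl, stem cell factor, which niche cells present to HSCs, was barely detected in the HSCs themselves. It had 116 and 107 scaled reads in young and 139.5 and 116.5 in old replicates, or 0.41 ± 0.023 and 0.471 ± 0.06 FPKM, from an estimated 54 to 216 reads per library. Old 14 exceeded young 13 by 0.5 scaled reads, while the technical libraries of 1 replicate differed by up to 1.34-fold. The fitted change was 0.19 on the log2 scale (interval -0.39 to 0.77, adjusted p = 0.809). Kit exceeded its ligand by 437-fold to 579-fold per length in the 4 replicates, and the ratio did not order by age (exact permutation p = 1). The row of Kitl spans 99478458 to 99563046 on chromosome 10, plus strand, in mm9.

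**Figure D2:**
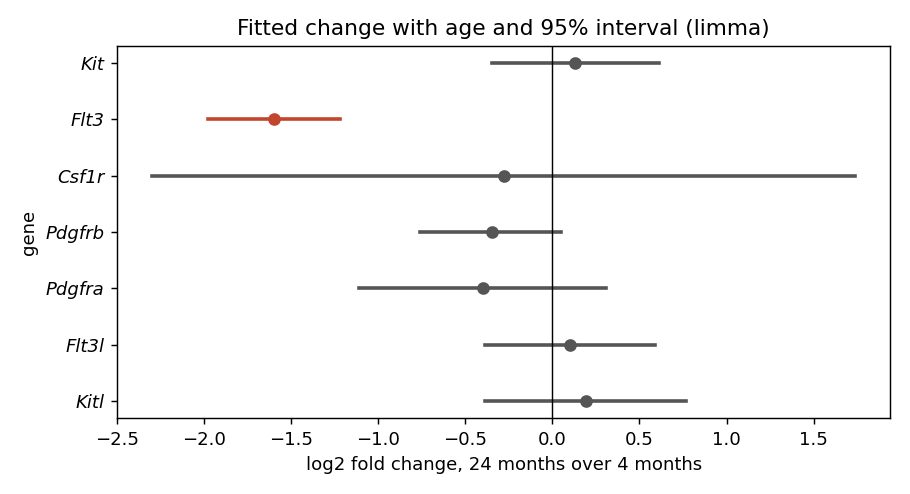
Fitted log2 fold change of 24 over 4 months for each of the 7 genes, with its 95% interval from limma. Flt3, in red, is the 1 gene called, at -1.60, and the interval of Csf1r, from -2.30 to 1.74, is the widest.

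Csf1r, the receptor for CSF1 and IL-34 on monocytes and macrophages, differed more between replicates of 1 age than between the ages. Young 13 had 166 and 154 scaled reads in its technical libraries and young 14 had 1246 and 1178. Old 13 had 270 and 228, and old 14 had 509 and 550. Both old replicates thus lay between the young ones, which differed by 7.58-fold. The age comparison gave a log2 fold change of -0.28 with an SE of 0.85 and an interval from -2.30 to 1.74 (adjusted p = 0.931). Its sign turned with the replicate left out: it was 1.18 without young 14 (adjusted p = 0.461) and 0.26 without old 13 (0.928), and -1.74 without young 13 (0.0927) and -0.82 without old 14 (0.862). The authors' deposited table marks Csf1r as lower in old HSCs, with a log2 fold change of -0.87 and an FDR of 4.42e-07. That table marks 2 of the 7 genes, Flt3 and Csf1r, and 11.8% of all genes for which it gives an FDR.

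Many genes of maturing myeloid cells were, like Csf1r, highest in young 14, though most did not share its whole order of replicates (young 13, old 13, old 14, young 14 from low to high). That order was found for 6 of 16 tested genes of the monocyte and macrophage list and for 2 of 13 of the granulocyte list, Mpo and Ctsg. Of 16 tested monocyte and macrophage markers, 15 were higher in young 14 than in young 13, by a median log2 difference of 1.20. With age, 1 of the 16 fell, Vcam1 (0.54% of all tested genes fell), and none rose. The list, which does not hold Csf1r, summed to 4120 scaled reads (young 13), 18397 (young 14), 4739 (old 13) and 10981 (old 14), and none of its genes was at 0. Of 13 tested granulocyte progenitor and neutrophil genes, 12 were higher in young 14 than in young 13. None was called by limma or limma-voom, while 11 had a fitted change under 0 and the median was -1.81. In limma 5 of the 13 had an unadjusted p under 0.05, as did 2573 of all 18318 tested genes. Old 13 was the lowest replicate for 9 of the 13, among them Ltf, a neutrophil granule protein, with 861, 1135, 46.5 and 267 scaled reads (young 13, young 14, old 13, old 14). The list summed to 20051.5, 59361, 20660.5 and 33681.5 in that order, and without Mpo to 16453.5, 31599.5, 16232.5 and 23660. The profiles nearest to Csf1r were those of Ctsg, Mpo, Cx3cr1 and Sema4a, with root mean square differences of 0.14 to 0.19. Mpo, the myeloperoxidase of granulocyte precursors, had 3598, 27761.5, 4428 and 10021.5 scaled reads, and Cx3cr1, a chemokine receptor of monocytes, had 44, 306, 71.5 and 162.5. The part of such cells in the values of Csf1r was not tested. C1qa, a complement gene of resident macrophages, had young values of 177.5 and 186.5 and old values of 84.5 and 80.5 (adjusted p = 0.0615). The list of mature lineage antigens, which also holds the pan-blood gene Ptprc, had 6 tested genes. Of these 1 rose, Klrb1c, where 2.01% of all tested genes rose, and none fell. Cd3e had at most 18.5 and Cd8a at most 1.5 scaled reads. Itgam had 520.5, 1350, 226.5 and 496.5 and Cd4 84.5, 74.5, 35.5 and 22.5 (young 13, young 14, old 13, old 14). Neither Itgam nor Cd4 was called. That list summed to 15712, 17687.5, 18389 and 18588, with Ptprc, the CD45 of all blood cells, the most abundant and Klrb1c next in old HSCs, at 2495 and 4036.

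**Figure D3:**
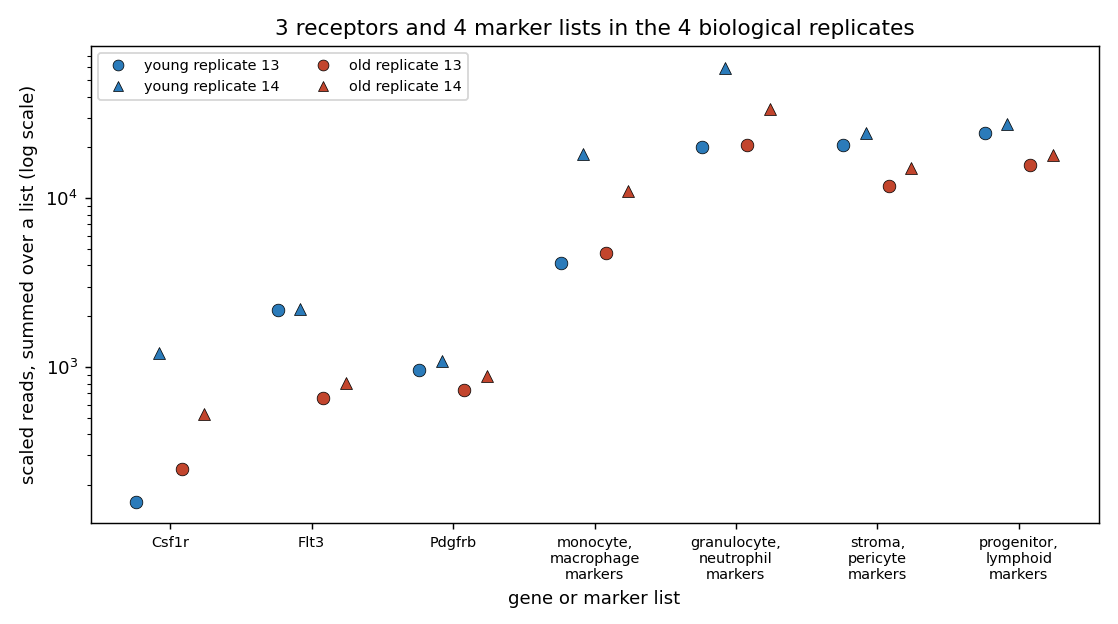
Scaled reads (log axis) of Csf1r, Flt3 and Pdgfrb and of 4 summed marker lists in the 4 biological replicates, coloured by age and shaped by replicate number. Csf1r and the monocyte and granulocyte lists are highest in young replicate 14, and the 2 young values of Flt3 lie on top of each other.

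Pdgfrb, the PDGF receptor beta of pericytes and other mesenchymal cells, is the chromosomal neighbour of Csf1r and had far steadier values. In mm9 it occupies 61204804 to 61244721 of chromosome 18, Csf1r occupies 61265226 to 61290793 on the same strand, and no row of the table lies in the 20505 bases between them. Its young replicates had 966.5 and 1087 scaled reads, its old replicates 729.5 and 881. Both old replicates lay under both young ones, and the replicates of 1 age differed by at most 1.21-fold. This gave a log2 fold change of -0.35 (SE 0.17, interval -0.76 to 0.05), which did not pass (adjusted p = 0.437). In the authors' deposited table its FDR is 0.0506 with a log2 fold change of -0.38, and it is not marked. Its level was 3.81 ± 0.32 FPKM in young and 2.99 ± 0.4 in old HSCs.

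Pdgfra, the alpha receptor that marks mesenchymal stromal cells, had the lowest level of the 7 genes. The young replicates had 78 and 58 scaled reads and the old ones 51 and 50.5, from an estimated 30 to 122 reads per library. The means were 0.203 ± 0.042 FPKM in young and 0.151 ± 0.0011 in old cells. At this depth the change was -0.40 on the log2 scale (interval -1.11 to 0.31, adjusted p = 0.65), and the interval ran from 0.462 to 1.24 times the young level. It lies upstream of Kit on chromosome 5, from 75548316 to 75594229 in mm9, with 376783 bases and no other row of the table between them.

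Some stromal genes fell with age in these libraries. Of the 13 tested genes of the stroma and pericyte list, to which both PDGF receptors belong, 3 fell (Col1a1, Sparc and Col3a1), against 0.54% of all tested genes, and none rose. The fitted change was under 0 for all 13, against 43.5% of all tested genes, at a median of -0.70. In young 14, 9 of the 13 were higher than in young 13. Col1a1, a chain of type I collagen, fell from 905.5 and 1794 scaled reads to 65 and 58 (adjusted p = 0.00236), and Sparc, a collagen-binding matrix protein, from 357.5 and 537 to 67 and 69.5 (adjusted p = 0.00499). The list summed to 20675 and 24183 among young and to 11819.5 and 15048.5 among old replicates, most of it Vim, which HSCs express too. Rgs5, a defining gene of pericytes, had at most 2 scaled reads in any replicate, and Acta2 at most 16. Other genes of the list had more: Cxcl12 had 2938, 1300, 1461 and 986 (young 13, young 14, old 13, old 14). In that order Col1a2 had 1462, 2512, 747 and 822.5, and Lepr 244, 138.5, 141.5 and 102.5. Cxcl12, Col1a2 and Lepr were not called. Whether stromal cells contributed to the PDGF receptor values was not tested.

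Ordered per length, the levels in young HSCs ran from Kit through Flt3l, Flt3, Pdgfrb, Csf1r and Kitl to Pdgfra. In young HSCs the replicates of Flt3l and Flt3 overlapped, as did those of Pdgfrb and Csf1r, and the other neighbours in the order were apart. The order of the means was the same in old HSCs, where Flt3 had separated from Flt3l and Pdgfrb still overlapped Csf1r. For 5 of the 7 genes, all but Csf1r and Flt3l, the replicates of one age did not overlap those of the other, which was also true of 42.1% of all tested genes. The fitted change was below 0 for 4 of the 5 receptors, Kit being the exception, and above 0 for both ligands. It was below 0 for 43.5% of all tested genes. Of the 7 genes only Flt3 was called, and the signs of Csf1r and Flt3l turned with the replicate left out.

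The ligands of the family included genes with larger fitted changes than Kitl or Flt3l, though none of the 8 was called, by limma or with voom weights. In limma 3 of the 8 had an unadjusted p under 0.05, as did 2573 of all 18318 tested genes. Pdgfb, which binds both PDGF receptors, had 540.5 and 528 scaled reads when young against 886.5 and 819 when old (log2 fold change 0.67, adjusted p = 0.094). Pdgfd, a ligand of the beta receptor, had 380.5 and 426 against 637.5 and 668.5 (0.70, adjusted p = 0.107). Pdgfc, a ligand of the alpha receptor, went the other way, with 232.5 and 203 against 124.5 and 117.5 (-0.84, adjusted p = 0.131). For each of these 3 genes, named for the smallest p of the list, the replicates of the ages did not overlap. That was also true of Pdgfa, Csf1 and Kitl, and of 42.1% of all tested genes.

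Genes that carry the signal inside the cell gave no call. Of 51 adaptors, kinases and phosphatases tested, limma and limma-voom called 0 over all genes, and the median log2 fold change was -0.09. An unadjusted p under 0.05 in limma was found for 6 of the 51, against 2573 of all 18318 tested genes. The smallest p belonged to Pik3cd, the leukocyte PI3 kinase catalytic subunit, with young values of 8394 and 7462 scaled reads and old values of 5271 and 4596 (log2 fold change -0.69, adjusted p = 0.0781). Btk, a TEC family kinase, had 4996 and 5257 against 4106 and 3569 (adjusted p = 0.243), and Fes, a cytoplasmic kinase of myeloid cells, 3068 and 2836 against 2420 and 2031 (adjusted p = 0.278).

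Among 30 tested inhibitors and turnover genes of receptor signalling, 1 fell (0.54% of all tested genes fell) and none rose, with a median of -0.01. That gene was Socs2, a feedback inhibitor of cytokine signalling that is also known to bind Flt3, and it fell from 720.5 and 632 to 255 and 246 scaled reads, or by 1.43 on the log2 scale (SE 0.18, adjusted p = 0.0128). Sh2b2, an adaptor, had 449 and 479 against 277 and 276 (adjusted p = 0.101), and Dok3, an inhibitory adaptor, 461 and 454 against 313.5 and 272 (adjusted p = 0.161).

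Of 19 tested transcription factors and cofactors known to act at Kit, Flt3 or Csf1r, 2 fell, Satb1, given above, and Gata1, and none rose. Of all tested genes 0.54% were called as lower. Gata1, a factor of red cells and megakaryocytes, fell from 1608 and 1858 to 903 and 739.5 scaled reads (log2 fold change -1.08, adjusted p = 0.0257). Spi1, the myeloid and lymphoid factor PU.1, had 2428 and 2401 against 1760 and 1890, a log2 fold change of -0.40 (adjusted p = 0.232).

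Other receptor tyrosine kinases that were called all rose, as did 368 of the 467 genes called over all. Of 54 listed, 39 were tested, 3 rose (2.01% of all tested genes rose), 0 fell, and the median log2 fold change was 0.09. Epha2, an ephrin receptor, rose from 96 and 104.5 to 395 and 442 scaled reads (log2 fold change 2.06, adjusted p = 0.00601). Kdr, the VEGF receptor whose gene lies next to Kit in mammals, rose from 470 and 598 to 1332 and 1296 (1.31, adjusted p = 0.0158). Ddr1, a collagen receptor, rose from 131 and 85 to 386 and 383.5 (1.86, adjusted p = 0.0187). Kdr also marks endothelial cells: of 10 tested genes of that list 3 rose, Ramp2, Vwf and Kdr, against 2.01% of all tested genes, and none fell, with a median of 0.04. The list summed to 31365.5 and 31614.5 against 56512.5 and 61781.5, most of the old sum being Vwf, which HSCs express too. Its defining gene Cdh5 had 19 and 16 scaled reads against 7 and 7. The part of endothelial cells in the rise of Kdr was not tested. Over the 5 lists together, 6 of 147 tested genes were called, or 4.08% against 2.55% of all genes, and nothing is read from a difference of that size.

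**Figure D4:**
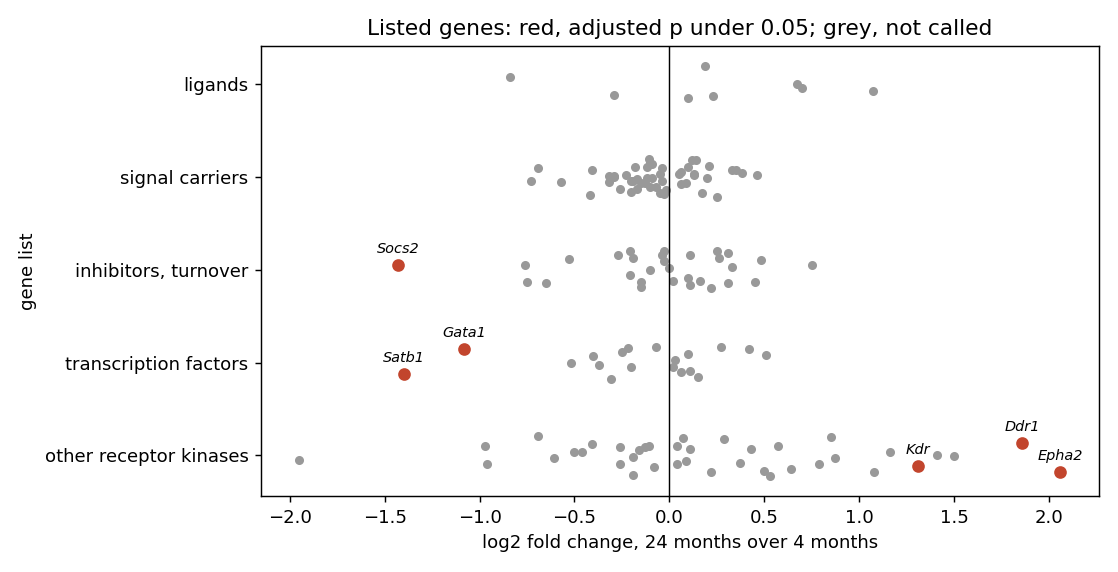
Fitted log2 fold change of 24 over 4 months for each tested gene of the 5 lists, in rows (vertical scatter within a row carries no value). The 6 called genes are red and named: Socs2, Satb1 and Gata1 lie at -1.43, -1.40 and -1.08, and Kdr, Ddr1 and Epha2 at 1.31, 1.86 and 2.06.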

How the data were processed

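Polyadenylated RNA of sorted HSCs was sequenced from 8 libraries. The deposited values named like counts are a score: the authors scaled each library's reads by 1 number and rounded the product, as the values themselves show by skipping or doubling whole numbers at a fixed spacing. From that spacing the factor and the reads of each library were estimated, a step tested on simulated data. The deposited FPKM is that score times 1 constant per gene. The log2 fold change and the FDR, an adjusted p-value, are from the authors' comparison in the deposited table. Per the submitters' processing notes, mm9 was the genome build and DESeq was used, with neither version nor role stated. Which aligner and counter were used is not given in the sources used here.

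In the design a count test was planned only for raw counts, so the test planned for other values was used: log2(scaled value + 0.5), averaged technical libraries, limma 3.58.1 under R 4.3.3, a model of age alone with a trend on level, two-sided, with Benjamini-Hochberg adjustment. Genes with at least 10 scaled reads in at least 2 of 4 replicates were tested. Fold changes are on that log2 scale and understate the change of low genes, and p-values cover only the spread among these replicates, whose separate origin in animals is not spelled out. The fit was tested on simulated data. Depth sets the precision of low genes, and read estimates carry counting error.

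The 7 genes, the 5 pathway lists and the 10 marker lists were chosen with earlier results of these data known. Lists were matched by symbol, with 3 older symbols resolved through RefSeq. Genes named from a pathway list are those called, up to 6, or else enough of the smallest p to make 3; of a marker list, the most abundant and those a result turns on. Profile likeness is the root mean square difference of centred log2 values over 8 libraries, 4 genes for each of 3 receptors. Alternatives were another pseudocount, filter, scaling, weighting, choice of technical libraries, a replicate block, and each replicate left out.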

Additional observations from a re-analysis of the deposited data

How the results depend on the processing

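The 16 alternatives were planned with the design. Flt3 kept its direction in all of them, between -1.75 and -1.45 on the log2 scale with a replicate left out and between -1.66 and -1.59 otherwise, and it was called in 11 of the 12 others. Without a filter on low values its change was -1.60 but it was not called, nor was any other gene: the counts were 0 of 27330 genes, 0 of the 7 described here and 0 pathway genes, against 467, 1 and 6 (2943 genes at an unadjusted p under 0.05). With a replicate left out, the number of genes called ranged from 0 to 274, of the 7 genes from 0 to 1, and of pathway genes from 0 to 3. The zeros came without old replicate 13 or 14, and fewer samples were then fitted, the lone replicate being assumed to vary like the other age. Genes called were 302 with a mean FPKM of at least 1, 302 with the lower-numbered technical libraries and 1065 with all 8 libraries and a random block. Pathway genes called were 2 without a trend and 22 with all 8 libraries. The change of Csf1r ranged from -1.74 to 1.18 and that of Flt3l from -0.08 to 0.29 with a replicate left out, while Kit (0.05 to 0.20), Kitl (0.06 to 0.32), Pdgfra (-0.62 to -0.19) and Pdgfrb (-0.49 to -0.22) kept their sign and none was called. With the replicate block (number 13 or 14 as a term), 2766 genes and 36 pathway genes were called, Flt3 again the only one of the 7. The numbers are shared by the ages in the labels only: deviations of same-numbered replicates had a correlation of 0.544 across genes, but 2 pairs do not show that the samples are paired. The cause of these differences was not tested. Depth limits Pdgfra and Kitl most, at 30 and 54 estimated reads in their lowest library.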

Other observations

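Genes of mast cells, which are also known to carry Kit, and of basophils were measured in these libraries too. Of the 11 listed, 7 were tested and 0 were called by limma or limma-voom. Before adjustment, 1 of the 7 had a limma p under 0.05, as did 2573 of all 18318 tested genes. Prss34, a protease of basophils, had 165.5 and 2772 scaled reads in young replicates 13 and 14 and 573 and 843 in the old. Mcpt8, another basophil protease, had 72.5 and 1152 against 263.5 and 332. The list summed to 1075 and 6406 against 1638 and 2184. All 7 tested genes of the list were higher in young 14 than in young 13, by a median log2 difference of 2.60. Kit had 54958.5 scaled reads in young 14, its lowest value of the 4 replicates, and 56382 in young 13. The part of mast cells and basophils in the values of Kit was not tested. The tryptase Tpsab1 of tissue mast cells was at 0 in every replicate, and Mcpt4 and Cma1 had at most 2 scaled reads. Some other genes of the list were present in both ages. Cpa3 had means of 10.2 FPKM in young and 5.15 in old HSCs. In the same order Fcer1a had 2.67 and 2.27 FPKM, and Il1rl1 1.3 and 0.726.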
